A study of Mus musculus with 18 samples.

Results

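Cytosolic ribosomal protein genes encode the proteins of the large and small subunits of the cytoplasmic ribosome. They were chosen by symbol, as every gene named Rpl, Rps or Rplp followed by a number and at most 1 further letter, plus Rpsa, with the feature of largest count kept for each symbol. The rule found 83 genes among 56980 features, and each symbol belonged to 1 feature. Of these, 79 passed the filter on low counts and were tested among 11835 genes, 47 of the large and 32 of the small subunit. The rule leaves out Rps3a1, Rpl22l1 and Fau, which also encode ribosomal proteins or their relatives. No expression value was used to choose the genes.

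The hypothalamus governs appetite and energy expenditure, and its polyadenylated RNA was sequenced from the 3' end in 18 mice, all male and of strain C57BL/6JGpt, with 6 per group. The study asked what diet-induced obesity (DIO) and TN-783, a drug that blocks the inflammasome protein NLRP3, changed in this tissue. DIO+ Vehicle mice were fed a diet rich in fat for 16 weeks or more, starting when they were 6 weeks old, and received vehicle by mouth, 2 doses a day. DIO+ TN-783 mice had the same diet and schedule with the drug at 50 mg/kg. Dosing lasted 29 days by the labels and 28 days by the deposited sample table, which gives an age of 7 months. Lean Control mice ate chow, matched the others in strain, sex and age, and received no drug. The labels describe 14 days of vehicle gavage before the study without saying whether lean mice took part. Dosing may therefore differ along with diet between vehicle and lean mice. All animals were wild type, and obesity was produced by diet alone. The labels call the 18 samples independent, so errors describe the spread between animals.

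Ribosomal protein mRNAs are short, abundant and made in near-equal proportion, since each ribosome carries a single copy of most of its proteins. In mammals these mRNAs begin with a cytosine followed by a run of pyrimidines, the terminal oligopyrimidine (TOP) motif, through which the growth-sensing kinase mTOR and the RNA-binding protein Larp1 set their translation and stability. In hypothalamic neurons mTOR signalling responds to nutrients, and phosphorylation of the protein of Rps6 is a common readout of neuronal activity.

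Runs of pyrimidines lie near the annotated start of many of these genes. The windows below are 30 bases from RefSeq promoters of GRCm38.p6, which is an older build than the GRCm39 of the deposited data. Each is read 5′ to 3′ on the coding strand, with the longest C or T run of at least 8 bases that lies within 50 bases of the annotated start in capitals. Rps24, Rpl35, Rpl38, Rps21 and Rps3 are shown as examples of genes whose counts rose with RNA integrity, and Rpl13 because it did not pass that test. Those calls, fitted over all 3 groups, did not hold without 1 lean library, as given below. With position 1 as the first base of the annotated transcript, the run begins at position -37 in Rps24, -7 in Rpl35, -2 in Rpl38, 35 in Rps21 and -16 in Rpl13. It crosses the annotated start in Rpl35 and Rpl38, ends before it in Rps24 and Rpl13 and lies after it in Rps21, whose window, like that of Rps24, does not contain the start. Rps3 held no such run, and its window spans the start. Where transcripts begin was not measured here, so the capitals do not mark a TOP motif.
Rps24 (chr14:24490710-24490739, plus strand): gagcggTCCTCTTTTCCTCCTCTCCagctc
Rpl35 (chr2:39005115-39005144, minus strand): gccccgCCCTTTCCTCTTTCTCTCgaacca
Rpl38 (chr11:114668568-114668597, plus strand): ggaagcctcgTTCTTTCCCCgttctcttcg
Rps21 (chr2:180257399-180257428, plus strand): ggaggcacgagctaCTTCCTTTCTgcgctc
Rps3 (chr7:99483695-99483724, minus strand): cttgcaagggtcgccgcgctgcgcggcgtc
Rpl13 (chr8:123102324-123102353, plus strand): cgtgacgtcaCTTCCCTTTCgcctgatttt

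RefSeq promoters were found for 61 of the 83 genes, of which 52 (85.2%) held such a run, against 39.3% of 27025 genes in the table. The letters CTTTC, read on the coding strand within 50 bases of the start and overlapping many of these runs, were found in 52.5% of the ribosomal protein genes and in 14.6% of all genes. CCGGAAG, the core bound by ETS factors, was found on either strand from 250 bases before to 50 after the start in 41% against 9.93%. GGGCGG, a GC box, was found on either strand of the same window in 59% against 38.2%. TATAA, searched on the coding strand in the 50 bases before the start, was found in 6.56% against 5.89%. These are matches of letters and not measured binding sites.

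Library totals lay between 1699712 and 3695785 counts, and the scores for RNA integrity (RIN, a score of how little the RNA is degraded) between 9.4 and 10.0. Lean Control replicate 6, with the highest score of 10.0, stood apart from the other lean libraries: 78 of the 79 tested ribosomal protein genes were highest there within the lean group. Counts of calls and the slopes of named genes that rest on it are also given without it. DIO+ Vehicle replicates 2 and 4 held pituitary transcripts, with 8 pituitary markers summing to 3857 and 3450 CPM (counts scaled to a common library size) against 29.9 to 136 CPM elsewhere. All 12 hypothalamic markers listed, among them Pmch, Hcrt and Agrp, were detected and tested.

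Ribosomal protein genes took 4.09% to 7.73% of all counts. In lean mice the share was 4.94%, 4.38%, 4.28%, 4.09%, 4.43% and 7.73% in replicates 1 to 6. In vehicle mice it was 5.35%, 6.26%, 6.98%, 5.45%, 4.52% and 6.24%. In TN-783 mice it was 7.27%, 5.60%, 4.92%, 5.81%, 5.52% and 4.89%. The 3 groups overlapped, and the highest single share was in a lean animal. Mean shares were 4.97% ± 1.38 for lean, 5.80% ± 0.868 for vehicle and 5.67% ± 0.866 for TN-783 animals (SD, n = 6). Without Lean Control replicate 6 the lean mean was 4.42% ± 0.315 (SD, n = 5). In bulk tissue, fewer cells of a type and less RNA per cell cannot be told apart.

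The large and small subunits took nearly equal shares in every library. The ratio of large to small subunit counts was 1.01 ± 0.031 for lean, 1.01 ± 0.0487 for vehicle and 1.02 ± 0.0295 for TN-783 animals (SD, n = 6), and lay between 0.944 and 1.09 in all libraries. Over the 3081 pairs of tested genes, the median Pearson correlation of deviations from group means was 0.882 across 18 libraries that share depth and scaling. The deviations of 71 of the 79 genes correlated above 0.8 with the mean of the others. Rps4l, a paralog of Rps4x, was the exception in sign, at -0.484. With Lean Control replicate 6 left out, the median over pairs was 0.796, 63 genes correlated above 0.8 and Rps4l stood at -0.577.

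The share of counts varied with RNA integrity. Pearson's r between share and integrity score was 0.726 and Spearman's rho 0.681 over 18 libraries, given as a description because the libraries share scaling and many share an integrity score. Without the 2 libraries with the highest scores, Lean Control replicate 6 and DIO+ Vehicle replicate 6, r was 0.588. When Lean Control replicate 6 alone was left out, it was 0.616. Within groups r was 0.812 for lean, 0.562 for vehicle and 0.704 for TN-783 animals, whose scores were only 9.6 and 9.7. Spearman's rho was 0.348 for lean, 0.377 for vehicle and 0.878 for TN-783 animals. The lean r rests on replicate 6, which had both the highest score and the highest share. The share did not follow the score everywhere. Lean Control replicate 4 had a score of 9.7, the highest of the lean libraries apart from replicate 6, and the lowest share of all.

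**Figure D1:**
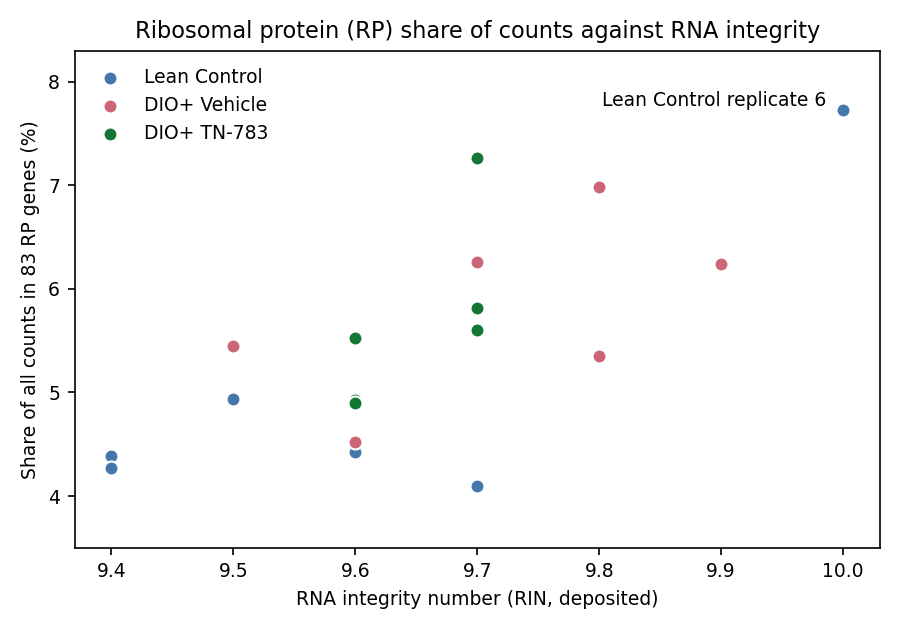
Share of all counts in 83 ribosomal protein genes (%, vertical axis, which starts at 3.5) against the deposited RNA integrity score (horizontal axis) in 18 libraries, 1 point each, coloured by group. Lean Control replicate 6 sits alone at a score of 10.0 and 7.73%, and the other 5 lean libraries lie between 4.09% and 4.94%.

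In a fit of group and integrity together, 67 of the 79 ribosomal protein genes rose with integrity and 0 fell (quasi-likelihood test of edgeR, p adjusted by Benjamini-Hochberg over 11835 genes and under 0.05). Of all genes tested, 6.52% rose and 3.97% fell. The median slope of the ribosomal protein genes was 1.35 on the log2 scale per unit of integrity score, or 9.8% more counts for each 0.1 of a score, while the median of all genes was -0.0026. The large subunit had 41 of 47 genes called and a median slope of 1.45, and the small subunit 26 of 32 and 1.33. This call rests on Lean Control replicate 6. Without that library, 0 of 79 passed (edgeR, smallest adjusted p = 0.334, against 0% of all genes), and the median slope was 0.89. An unadjusted p under 0.05 was reached by 29, all with positive slopes, and the share of all genes at that threshold was not counted.

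Rps24, a small subunit protein mutated in human Diamond-Blackfan anaemia, had the smallest p. Its level was 513 to 1295 CPM in lean mice (median 631), 729 to 1175 in vehicle (median 847) and 592 to 992 in TN-783 mice (median 814). The highest lean library was replicate 6, and the groups overlapped. The slope was 1.88 (SE 0.29, edgeR adjusted p = 0.00128). Rpl35, of the large subunit near the exit of the peptide tunnel, was at 244 to 603 CPM in lean (median 258), 302 to 493 in vehicle (median 391) and 297 to 552 in TN-783 mice (median 361). The groups overlapped, with replicate 6 above every vehicle and TN-783 library. The other lean libraries lay at 244 to 276 CPM, below all of these. That gap appears only with the highest lean library set aside, and how many of all genes show one was not counted. The slope of Rpl35 was 1.96 (SE 0.32, edgeR adjusted p = 0.00144). Rps21, a small subunit protein, was at 1343 to 4029 CPM in lean (median 1557), 1776 to 3795 in vehicle (median 2386) and 1744 to 3457 in TN-783 mice (median 2299), with a slope of 2.13 (SE 0.40, adjusted p = 0.00351). Without Lean Control replicate 6 none of the 3 passed: the slope was 1.38 for Rps24 (edgeR adjusted p = 0.334), 1.33 for Rpl35 (adjusted p = 0.342) and 1.33 for Rps21 (adjusted p = 0.425).

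Other core proteins followed the same direction. Rps3, which lies at the mRNA entry channel and has a repair role outside the ribosome, had a slope of 1.91 (SE 0.32, edgeR adjusted p = 0.0017). Rpl38, needed in mice for translation of a subset of Hox mRNAs, had one of 1.87 (SE 0.32, adjusted p = 0.00186). Slopes were 1.80 for Rpl27, 1.28 for Rpl4, 1.72 for Rps7 and 1.92 for Rpl30, all with edgeR adjusted p between 0.0017 and 0.00351. The 3 stalk proteins, which recruit elongation factors, also rose: the slope was 1.09 for Rplp0, 1.29 for Rplp1 and 1.44 for Rplp2. Rpl5 and Rpl11, which bind Mdm2 when ribosome assembly is disturbed, had slopes of 1.76 and 2.40, and Rps19, the gene most often mutated in that anaemia, 2.23. Rpl11 had the steepest slope of the 79 genes. In the fit of all 3 groups without Lean Control replicate 6 none of these calls held, and all slopes stayed positive. They were then 1.47 for Rps3 (edgeR adjusted p = 0.338), 1.39 for Rpl38 (adjusted p = 0.342), 1.46 for Rpl30 (adjusted p = 0.371), 1.68 for Rpl11 (adjusted p = 0.403) and 1.34 for Rps19 (adjusted p = 0.444). Slopes of 1.23 for Rpl27, 0.84 for Rpl4, 0.96 for Rps7 and 0.94 for Rpl5 remained, and of 0.64 for Rplp0, 0.87 for Rplp1 and 0.90 for Rplp2. Over the 67 called genes the slopes without that library ran from 0.26 to 1.73, and 36 were lower by over 1.5 times. In the 12 DIO libraries, which also lack it, Rpl11, Rps3, Rpl30, Rps19 and Rpl38 passed, with edgeR adjusted p of 0.0144, 0.0319, 0.0375, 0.0378 and 0.0467.

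Genes with roles beyond the ribosome were also among those called. Rps6 had a slope of 1.08 (SE 0.28, edgeR adjusted p = 0.0155), Rpl13a, which in human monocytes can leave the ribosome and silence inflammatory mRNAs, 2.21 (SE 0.48, adjusted p = 0.0096), and Rpsa, also known as the laminin receptor precursor, 1.33 (SE 0.27, adjusted p = 0.0043). Rps27a, which encodes ubiquitin fused to a ribosomal protein, had a slope of 1.34 (adjusted p = 0.02). Rps15, Rpl10a, Rpl22 and Rps29 had slopes of 1.12, 1.24, 1.45 and 1.27, all called. Rps14 (0.93, adjusted p = 0.0666) and Rpl18 (1.49, SE 0.49, adjusted p = 0.0574) did not pass. With Lean Control replicate 6 left out, none of these genes passed. The slope was then 0.45 for Rps6 (edgeR adjusted p = 0.696), 1.50 for Rpl13a (adjusted p = 0.475), 0.94 for Rpsa (adjusted p = 0.403), 0.73 for Rps27a (adjusted p = 0.632) and 0.72 for Rpl22 (adjusted p = 0.568). It was 1.02 for Rps15, 1.08 for Rpl10a and 0.94 for Rps29. Of the genes in this paragraph, Rpl13a passed in the 12 DIO libraries (slope 2.58, edgeR adjusted p = 0.0398).

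The 12 genes that did not pass included several with small slopes. Rpl13, a large subunit protein, was at 470 to 756 CPM in lean (median 557), 542 to 722 in vehicle (median 688) and 499 to 693 in TN-783 mice (median 617). Its groups overlapped, with Lean Control replicate 6 highest of all, and its slope was 0.57 (SE 0.28, edgeR adjusted p = 0.191). Rps4l was at 25.3 to 35.9 CPM in lean (median 32.8), 23.8 to 41.5 in vehicle (median 29.8) and 21.4 to 33.9 in TN-783 mice (median 29.8). Its slope was -0.23 (SE 0.40, adjusted p = 0.765), the only negative estimate among the 79, and Lean Control replicate 6 lay within its range. Its partner Rps4x had a slope of 1.06 (SE 0.27, adjusted p = 0.0146). Rpl6 had a positive estimate that did not pass (0.60, SE 0.25, adjusted p = 0.108). When Lean Control replicate 6 was left out, the slope was 0.07 for Rpl13, 0.06 for Rpl6, -0.17 for Rps4l and 0.71 for Rps4x (edgeR adjusted p = 0.52). Reads of such genes can be split with near-identical copies, and 85.4% of the deposited values of the 83 genes were not whole numbers.

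**Figure D2:**
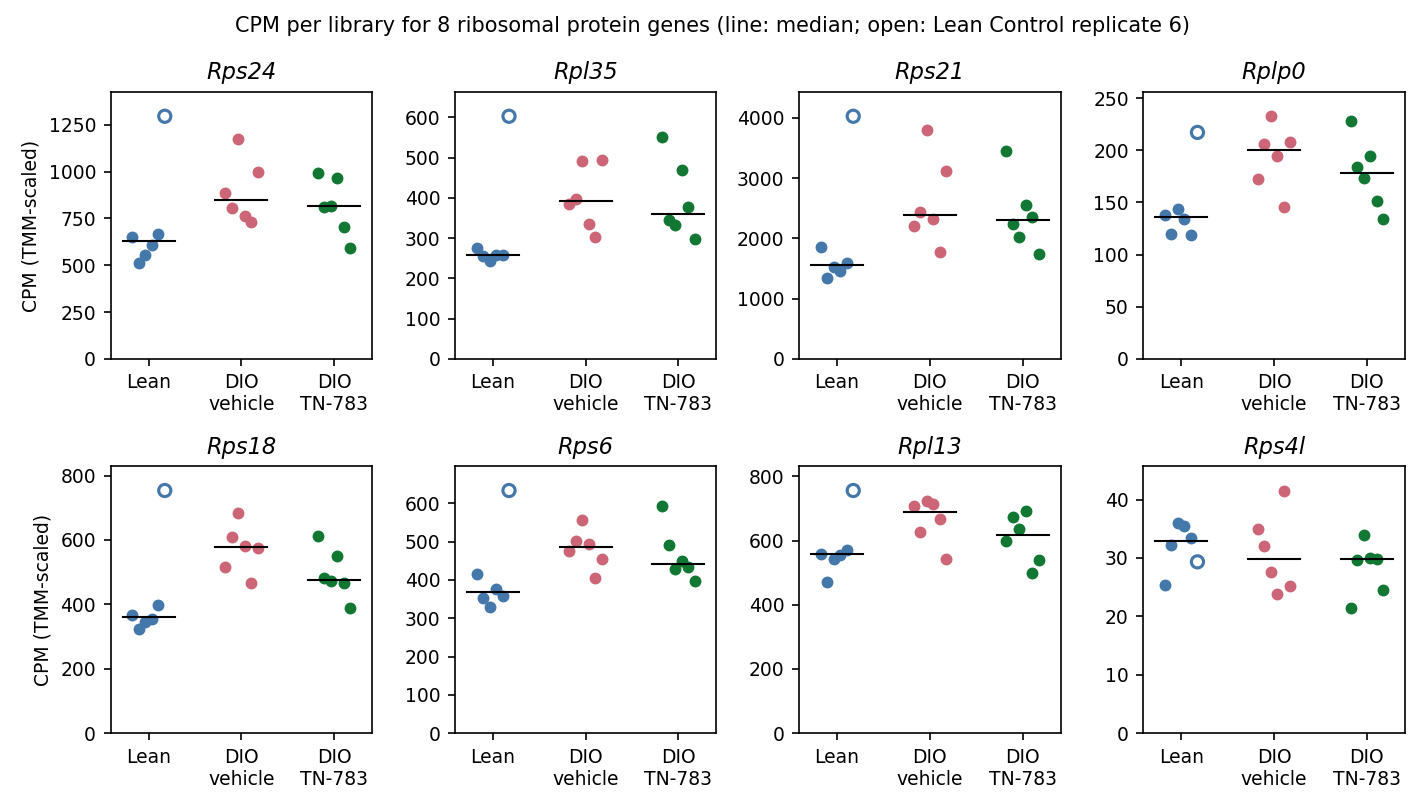
CPM (vertical axis, from 0, scaled by TMM factors) per library for 8 ribosomal protein genes, with 6 libraries a group, a line at each group's median and Lean Control replicate 6 as an open circle. That library tops the lean group for Rps24, Rpl35, Rps21, Rplp0, Rps18, Rps6 and Rpl13 but not for Rps4l, where it lies at 29.3 CPM.

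**Figure D3:**
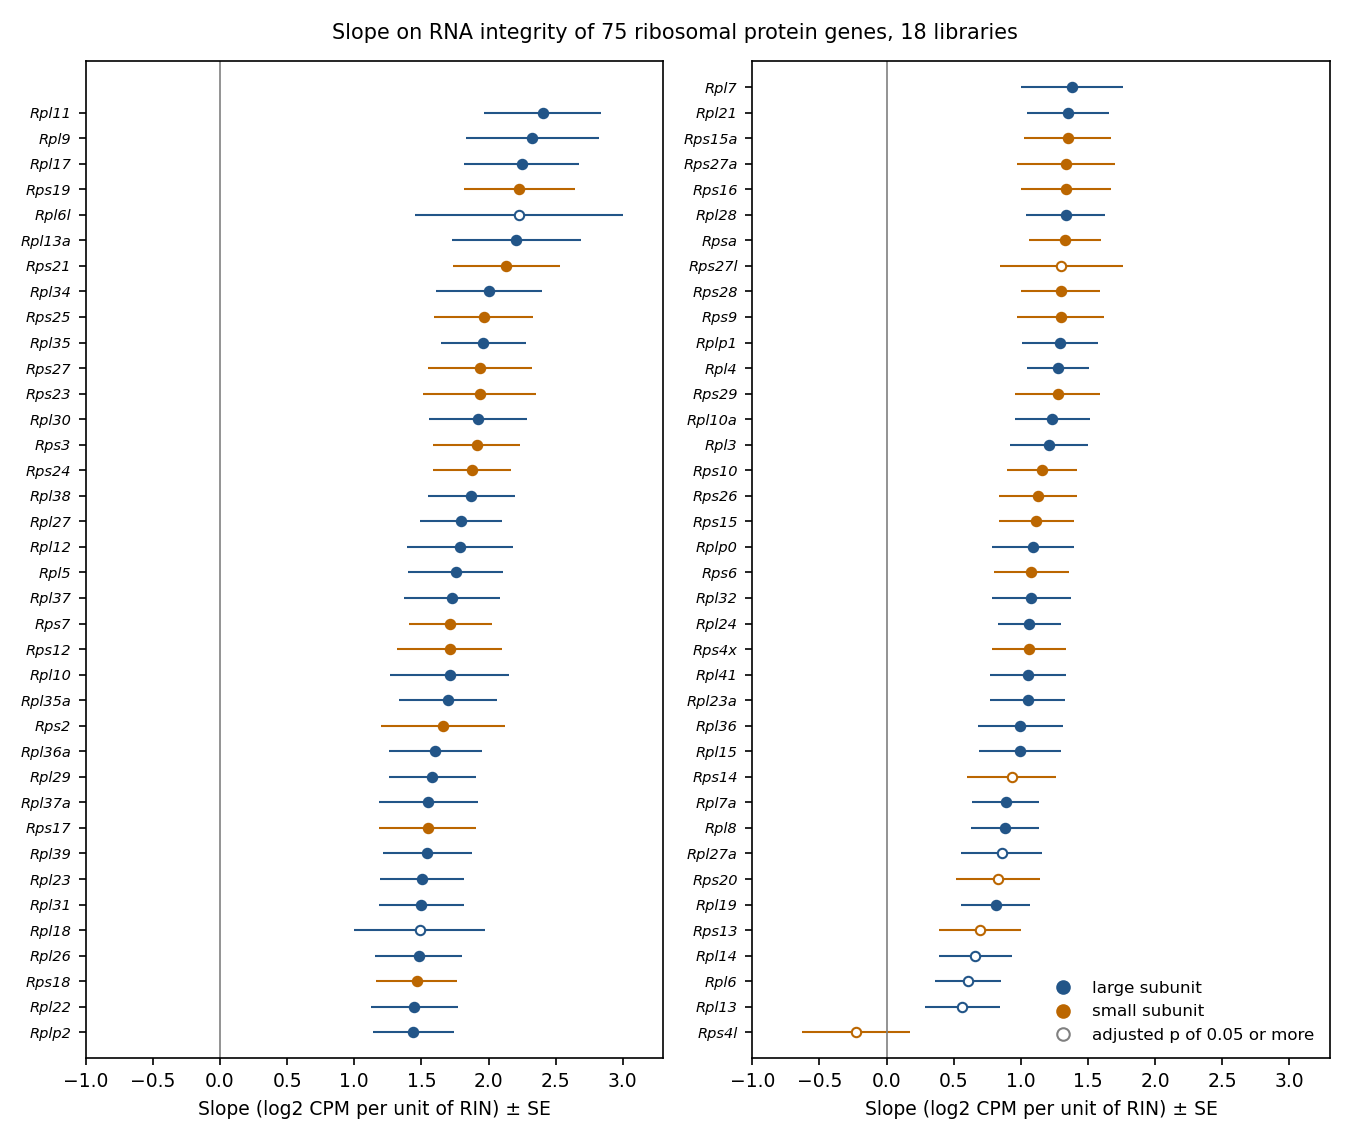
Slope on RNA integrity (log2 CPM per unit of score, with its SE as a bar) of 75 of the 79 tested ribosomal protein genes, ordered by size over both panels and coloured by subunit, with open points for adjusted p of 0.05 or more. Slopes run from -0.23 for Rps4l to 2.40 for Rpl11.

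Several paralogs with restricted tissue use were near the floor of detection. Rpl10l, the testis paralog of Rpl10, had 2 counts over all 18 libraries, Rpl32l 4, Rpl3l, the paralog of Rpl3 from heart and skeletal muscle, 9.1 and Rpl39l, the testis paralog of Rpl39, 25. These 4 did not pass the filter and were not tested. Their partners all rose with integrity, with slopes of 1.71 for Rpl10, 1.21 for Rpl3 and 1.54 for Rpl39. Rps27l, a target of the tumour suppressor p53, was tested and had a slope of 1.30 (SE 0.46, edgeR adjusted p = 0.0668), beside 1.94 (SE 0.39, adjusted p = 0.00459) for Rps27. Rpl6l, at a lowest level of 1.71 CPM and a highest of 14.4 CPM, both in lean mice, had a slope of 2.23 (SE 0.78, adjusted p = 0.0606). Without Lean Control replicate 6 none of these slopes passed: they were 0.94 for Rpl10 (edgeR adjusted p = 0.604), 0.80 for Rpl3 (adjusted p = 0.502), 1.14 for Rpl39 (adjusted p = 0.417), 1.18 for Rps27 (adjusted p = 0.461), 0.49 for Rps27l and 0.07 for Rpl6l. In the 12 DIO libraries Rpl39 passed, with a slope of 1.90 (edgeR adjusted p = 0.0481).

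Within single groups most slope estimates were positive, with less certainty. In lean mice 24 of the 79 genes rose with integrity (edgeR, adjusted over all genes, against 0.676% of all genes), with a median slope of 1.40. This rests on replicate 6, which sets the upper end of that range of scores. Among the other lean libraries, replicate 4 had the highest score, 9.7, and the lowest share of counts, 4.09%. A lean slope without replicate 6 was not fitted. In vehicle mice 0 passed (edgeR, against 0.161%), 26 had an unadjusted p under 0.05, and the median slope was 1.21, with 71 of 79 positive. In TN-783 mice 0 passed (edgeR, against 0%), 37 had an unadjusted p under 0.05, and the median of 3.66 spans scores only 0.1 apart. The difference between 2 groups' slopes passed for 0 of 79 genes in each of the 3 pairs of groups (edgeR), where 0.00845%, 0% and 0% of all genes passed. It had an unadjusted p under 0.05 for 6, 3 and 5 genes. For the slopes within groups and their differences, the share of all genes at that unadjusted threshold was not counted. In the 12 DIO libraries alone, a fit added after the data were seen, 12 ribosomal protein genes rose (edgeR, against 2.74% of all genes) and the median slope was 1.46. Rpl11 (2.84, SE 0.63), Rpl9 (2.99, SE 0.72) and Rpl28 (1.98, SE 0.52) had the smallest adjusted p among them, at 0.0144, 0.0241 and 0.0295. All 12 were among the 67 called with every library, a fit that includes these same libraries, so the overlap is no separate support. This fit lacks Lean Control replicate 6. With the other lean libraries added to it, 0 of 79 passed (edgeR).

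Other genes with short transcripts also rose with integrity more often than those with long ones, described here without a test. The median transcript length was 696.5 bases for the 77 tested ribosomal protein genes with a length and 2308 bases for 11111 tested genes, taken from annotated protein-coding transcripts of GRCm38. Of the other genes with transcripts of at most 600 bases, 68 of 373 (18.2%) rose with integrity, and of those over 4000 bases 53 of 2260 (2.35%). Among other genes of at most 1000 bases with a mean above 100 CPM, 109 of 347 (31.4%) rose, with a median slope of 0.47. Ribosomal protein genes up to 600 bases rose in 23 of 26 cases and those of 600 to 1000 bases in 34 of 37. Of genes with the pyrimidine run shown above, 43 of 49 tested rose (median slope 1.50), and of those without it 7 of 8 (median slope 1.20). With Lean Control replicate 6 left out, no gene of any length passed. Whether length, level or the run accounts for the slopes was not tested.

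**Figure D4:**
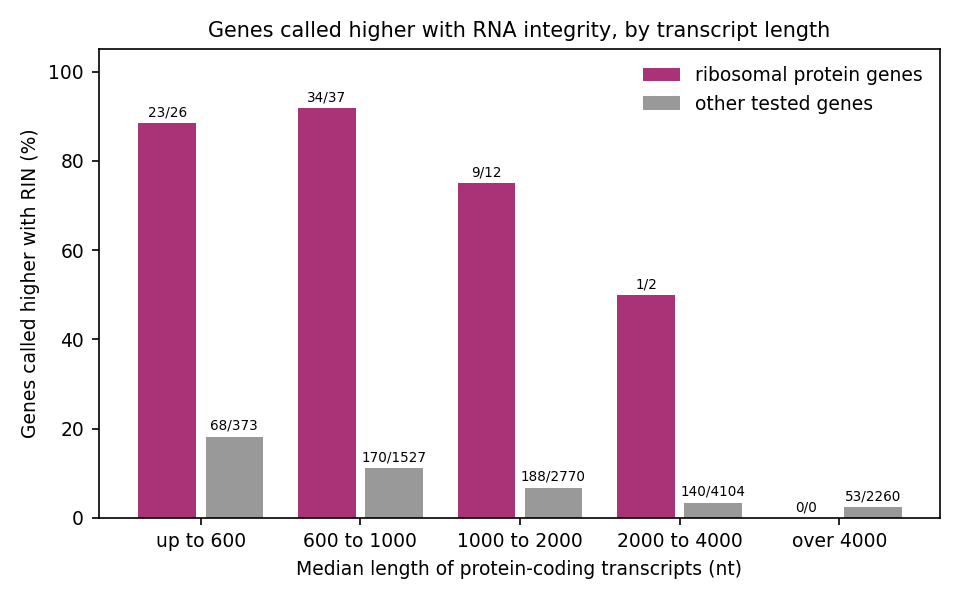
Percent of genes called higher with RNA integrity (vertical axis, from 0) by median length of their protein-coding transcripts (horizontal axis, bases), for ribosomal protein genes and all other tested genes, with counts above the bars. The share of other genes falls from 18.2% to 2.35% with length, and ribosomal protein genes lie above it in every bin that holds them, down to 1 of 2 genes at 2000 to 4000 bases.

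Neighbouring gene groups were read from lists, beside the 6.52% of all genes that rose and the 3.97% that fell. Of 19 other TOP mRNAs of the translation machinery, 7 rose with integrity and 0 fell, among them the elongation factor gene Eef1b2 (1.28), the initiation factor subunit gene Eif3e (1.52) and Fau (1.12), which encodes a ubiquitin-like protein fused to a ribosomal protein. Of 75 tested nuclear genes for oxidative phosphorylation, 42 rose and 0 fell, led by the complex I subunit gene Ndufb10 (1.87). Of 78 mitochondrial ribosomal protein genes, 8 (10.3%) rose and 1 fell, with a median slope of 0.54. Of 24 tested ribosome assembly genes, 2 (8.33%) rose, Polr1d and Gar1, 0 fell, and the median slope was -0.26. Of 14 initiation factors and TOP regulators, 1 (7.14%) rose, the RNA-binding protein gene Cnbp (1.20), and 2 fell, Eif4g1 (-1.39) and Rptor (-2.07), a partner of mTOR. Of 36 proteasome genes, 5 rose and 0 fell. Of 13 mitochondrially encoded genes, 3 rose and 0 fell. The shares of the mitochondrial ribosomal, assembly and initiation lists lie near that of all genes. When Lean Control replicate 6 was left out, 0 genes of any of these lists passed (edgeR), as of all 11984 genes then tested, and the median slope was 0.83 for oxidative phosphorylation, 0.46 for the other TOP mRNAs, 0.26 for mitochondrial ribosomal proteins and -0.13 for assembly genes.

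The genes outside the set that tracked its mean deviation best over 18 libraries were Rpl22l1 (r = 0.978), Tomm7 (0.973), Eef1b2 (0.972), Ndufb6 (0.971), Bola2 (0.970), Ndufb1 (0.969), Cops9 (0.967), Ndufa1 (0.965), Zfas1 (0.962) and Fau (0.961). The most opposed were Ncam1 (-0.982), Gabrb1 (-0.979), Ptprn, Ptpre, Slc8a1, Nfasc, Trpc5, Cntn2, Rasgrf1 and Timp2 (-0.953). Of 11756 genes outside the set, 475 had r above 0.8 and 413 below -0.8. Without Lean Control replicate 6 these became 238 and 196, and the 20 named genes lay at 0.919 to 0.965 and at -0.962 to -0.898.

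Some cell type markers moved with integrity too. The 8 oligodendrocyte markers summed to 6215 CPM in Lean Control replicate 6 and to 2465 to 3144 in the other lean libraries, with 3109 to 7400 in vehicle and 3545 to 6884 in TN-783 mice. Mbp and Mobp, both myelin genes, had slopes of 2.60 and 1.59, and 3 of the 8 markers rose with integrity while 1 fell. Of 8 neuron markers 0 rose and 2 fell, Syt1 (-1.75) and Elavl4 (-1.17). All 8 astrocyte markers had positive slopes and 2 rose. Of the microglial and of the endothelial markers 1 rose and 1 fell, of the meningeal ones 1 rose, and of 12 hypothalamic markers 1 fell. None passed among 4 tested blood, 4 tested pituitary and 3 tested choroid plexus and ependyma markers (edgeR). With Lean Control replicate 6 left out, 0 markers of any list passed (edgeR), and the median slope moved from 0.88 to 0.56 for oligodendrocytes, from -0.28 to -0.13 for neurons and from 0.66 to 0.58 for astrocytes. No marker of these lists was at 0 in every library, and their part in the ribosomal protein slopes was not tested.

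Vehicle mice were compared with lean mice to ask what the obese state changed. With all 18 libraries, 0 of 79 ribosomal protein genes passed (edgeR, smallest adjusted p = 0.351), where 0.00845% of all genes did. DESeq2 also called 0, and limma voom with sample weights called 6, all higher, against 1.12% of all genes in either direction. With no filter on low counts edgeR called 1, Rps18, against 0.338% of all genes. Estimates were higher in vehicle mice for 78 of 79 genes, with a median log2 difference of 0.29, or 22% higher, and a range of -0.05 to 0.53, while the median of all genes was 0.0074. Before adjustment, p was under 0.05 for 11 ribosomal protein genes, all higher, beside 5.32% of all genes higher and 5.53% lower.

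Leaving out Lean Control replicate 6 changed this comparison. That library was singled out because it was highest in its group for nearly all of these same genes. Larger differences from lean mice without it follow from that choice, so calls without it describe the fit and are no separate test. Without it 38 of the 79 genes were higher in vehicle mice (edgeR, adjusted p between 0.00773 and 0.0479), 20 of the large and 18 of the small subunit, where 1.66% of all genes were, and 0 were lower. The median difference was then 0.49. Mean integrity was 9.52 in the 5 remaining lean libraries and 9.72 in vehicle mice. Of the 38 genes, 37 were among those that rose with integrity in all libraries, as did 67 of the 79. Most of any such list would therefore overlap, and those 67 calls rest on the library left out here. With integrity as a covariate and that library also left out, a fit added after the data were seen, 0 of 79 passed (edgeR, smallest adjusted p = 0.286), 30 had an unadjusted p under 0.05, all higher, and the median was 0.30. With integrity as a covariate and every library, 0 passed, 4 had an unadjusted p under 0.05 and the median was 0.15. The share of all genes at that unadjusted threshold was not counted in either fit. Diet, dosing and integrity cannot be told apart as sources of what remains.

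Marker lists of other cells were read in the same comparison. All 4 tested blood markers had higher estimates in vehicle than in lean mice, with a median log2 difference of 1.31, and Hbb-bs, a beta globin gene, differed by 1.47 (SE 0.36, edgeR adjusted p = 0.236). The 5 listed blood markers summed to 353 to 699 CPM in lean, 317 to 2231 in vehicle and 1170.2 to 2119.7 in TN-783 mice, where every library lay above the lean ones. Estimates were higher in vehicle mice for 7 of 8 oligodendrocyte markers (median 0.30), for 5 of 6 endothelial markers (median 0.43) and for all 4 tested pituitary markers. The endothelial markers summed to 186 to 271 CPM in lean and 218 to 364 in vehicle mice. No marker of any list passed with all libraries (edgeR). When Lean Control replicate 6 was left out, 2 oligodendrocyte markers and 1 endothelial marker were called higher, 1 neuron marker and 1 meningeal marker lower, and of the hypothalamic markers 1 was called higher and 3 lower. In that fit 2.89% of all genes were called in either direction, and 1.66% were called higher. The medians were then 1.29 for blood, 0.38 for oligodendrocytes and 0.36 for endothelium. In TN-783 against lean mice they were, with all libraries, 1.45, 0.26 and 0.32, again with 4 of 4, 7 of 8 and 5 of 6 markers higher. Their part in the ribosomal protein differences was not tested.

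Rplp0, the scaffold of the stalk and a frequent reference gene in quantitative PCR, had the smallest p with all libraries. It was at 119 to 217 CPM in lean (median 136), 146 to 233 in vehicle (median 200) and 134 to 229 in TN-783 mice (median 178). Lean Control replicate 6 reached the upper vehicle values and the other lean libraries ended at 144 CPM, below the lowest vehicle library. The log2 difference was 0.41 (SE 0.14, edgeR adjusted p = 0.351), and 0.56 (SE 0.12, adjusted p = 0.0256) without that library. Rps18, of the small subunit head, was at 324 to 753 CPM in lean (median 361), 467 to 684 in vehicle (median 579) and 388 to 611 in TN-783 mice (median 477). Its lean libraries other than replicate 6 reached 396.5 CPM, below all vehicle libraries. For both genes the groups overlapped with all libraries. The gaps appear only with the highest lean library set aside, and how many of all genes show one was not counted. The difference for Rps18 was 0.44 (SE 0.17, edgeR adjusted p = 0.369). Without replicate 6 it was 0.68 (SE 0.11, edgeR adjusted p = 0.00773), the smallest p of the set.

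Rpl41, which encodes a very small basic protein, differed by 0.36 (SE 0.14, edgeR adjusted p = 0.358), and by 0.51 (SE 0.11, adjusted p = 0.0248) without Lean Control replicate 6. Rpl36 differed by 0.37 (SE 0.14, adjusted p = 0.358) and had 1 vehicle library, at 72.2 CPM, under the lowest lean value of 73.2. Rpl5 went from 0.43 (SE 0.21, adjusted p = 0.459) to 0.70 (SE 0.14, adjusted p = 0.0177), and Rpl17 from 0.46 (adjusted p = 0.537) to 0.83 (SE 0.18, adjusted p = 0.0286). Rpl9 had the largest estimate of the 79 in both fits, at 0.53 (SE 0.29, adjusted p = 0.51) and 0.87 (SE 0.23, adjusted p = 0.0479). Rps6 was at 330 to 634 CPM in lean (median 368) and 404 to 556 in vehicle mice (median 485), and its difference of 0.23 (SE 0.14, adjusted p = 0.534) became 0.39 (SE 0.11, adjusted p = 0.0448).

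Without Lean Control replicate 6 the difference was 0.66 for Rps19, 0.57 for Rps3, 0.54 for Rps27a, 0.44 for Rpsa, 0.53 for Rpl22, 0.62 for Rpl38, 0.63 for Rps27 and 0.67 for Rps27l, all among the 38 (edgeR adjusted p between 0.0298 and 0.0448). Other genes lay close to the threshold on its far side, some with larger estimates. In the same fit Rpl11 differed by 0.75 (edgeR adjusted p = 0.0505), Rpl13a by 0.77 (adjusted p = 0.0528), Rpl39 by 0.50 (adjusted p = 0.0528), Rpl10 by 0.57 (adjusted p = 0.0685), Rps15 by 0.40 (adjusted p = 0.0613) and Rpl3 by 0.39 (adjusted p = 0.0624). The stalk partners Rplp1 and Rplp2 differed by 0.38 (adjusted p = 0.0636) and 0.43 (adjusted p = 0.0528), and Rpl10a by 0.30 (adjusted p = 0.15). With all libraries Rps4l (-0.05, SE 0.14) and Rps4x (0.04, SE 0.13) had estimates near 0, and Rps4l was the only gene lower in vehicle mice.

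**Figure D5:**
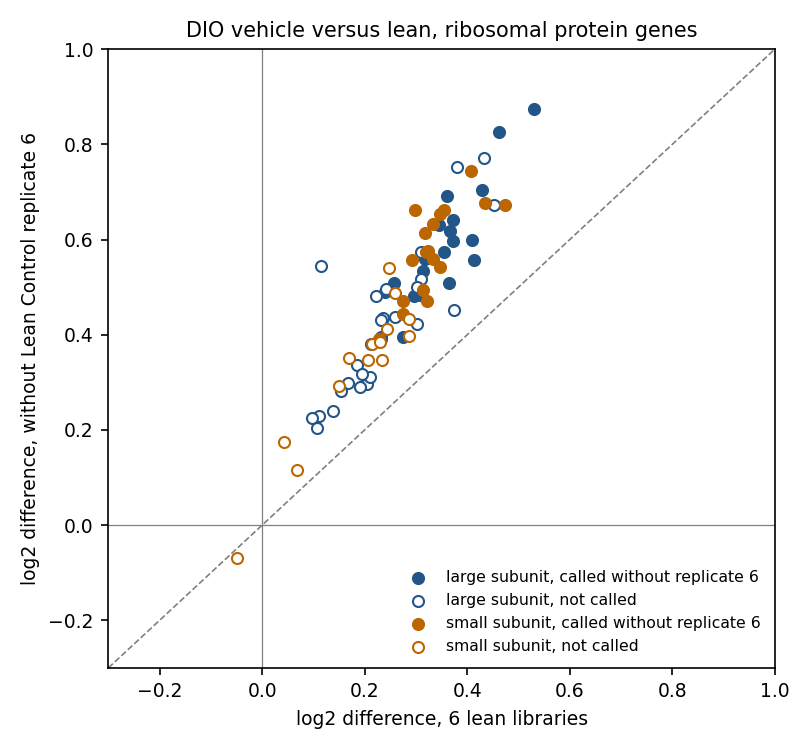
Log2 difference of DIO vehicle from lean mice for the 79 tested ribosomal protein genes with all 6 lean libraries (horizontal axis) and without Lean Control replicate 6 (vertical axis), coloured by subunit, filled where adjusted p was under 0.05 without it, with the line of equality dashed. All points but that of Rps4l lie above the line, and the median moves from 0.29 to 0.49.

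TN-783 mice were compared with vehicle mice to ask what the drug changed in obese animals. Of the 79 ribosomal protein genes 0 passed (edgeR, adjusted p = 1 for each, against 0% of all genes), and DESeq2 and limma voom also called 0. None had an unadjusted p under 0.05, where 1.03% of all genes were higher and 1.59% lower. Estimates were lower in TN-783 mice for 61 genes and higher for 18, with a median log2 difference of -0.05 (all genes -0.0045) and a range of -0.21 to 0.23. With integrity as a covariate the median was 0.06 and 55 genes were higher, so the sign of this small difference depended on the fit.

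Rps18 had the lowest estimate, -0.21 (SE 0.17), with a 95% interval of -0.56 to 0.14. Rpl13 differed by -0.13 (SE 0.12), and Rps6 differed by -0.05 with an interval of -0.34 to 0.24. Rpl6l (0.23, SE 0.35) and Rps2 (0.09, SE 0.23) had higher estimates. Rplp2 and Rpl18 differed by less than 0.01. Rplp0 differed by -0.12 (SE 0.14), Rpl5 by -0.14 (SE 0.21), Rpl11 by -0.05 (SE 0.29) and Rps19 by -0.01 (SE 0.27). Intervals of this width leave room for changes of either sign.

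TN-783 mice and lean mice differed in diet and drug, and whether lean mice took part in the vehicle gavage is not stated. Of the 79 genes 0 passed (edgeR, smallest adjusted p = 0.611, against 0% of all genes), DESeq2 and limma voom called 0, and 1, Rpl36, had an unadjusted p under 0.05, where 3.81% of all genes were higher and 4.34% lower. The estimate was higher in TN-783 mice for 77 genes, with a median of 0.25. Rpl36 differed by 0.29 (SE 0.14, edgeR adjusted p = 0.611), Rplp0 by 0.29 (SE 0.14, adjusted p = 0.619) and Rpl18 by 0.45 (SE 0.22, adjusted p = 0.619). Rps4l (-0.19, SE 0.14) and Rpl27a (-0.02, SE 0.13) were the only lower estimates, and Rpl8 was at 0.00 (SE 0.11). With Lean Control replicate 6 left out, the median was 0.45 and 0 passed (edgeR, against 0.0918% of all genes higher). An unadjusted p under 0.05 was reached by 72 genes, all higher, and the share of all genes at that threshold was not counted. As above, larger differences follow from the choice of this library. This comparison shares its lean samples with the one above and its TN-783 samples with the drug comparison, so the 3 are not independent.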

How the data were processed

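RNA was sequenced from 18 hypothalamus samples, 6 per group, with a 3' kit that adds molecular identifiers and 18 PCR cycles, per the labels' protocols. The authors deposited estimated counts per feature, log2 CPM values, a ratio per library for scaling and an RNA integrity score per sample. The submitters' processing notes name R 4.5.1, edgeR 4.6.2, STAR 2.7.9a, Salmon 1.10.1 and GRCm39 as genome build. Their roles, the annotation and the use of strand are not given in the sources used here. Deposited log2 CPM values equalled those recomputed from the counts and ratios to within 1.6e-14.

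The design assumed whole counts, so estimated counts were rounded. Genes passing filterByExpr (minimum count 10) were fitted in edgeR 4.0.16 (R 4.3.3) by robust quasi-likelihood after TMM scaling, with Benjamini-Hochberg adjustment over 11835 genes and a threshold of 0.05. The fit had 15 residual degrees of freedom, and the common biological variation was 0.169 as a coefficient. Standard errors are the log2 estimate divided by the root of F. Slopes come from a fit of group plus integrity score. CPM uses TMM-scaled library sizes. The edgeR fits were tested on simulated data.

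The ribosomal protein genes, the other lists and the rule for named genes were chosen with earlier results of these data known. Named were a set of genes with known roles, the restricted paralogs and their partners, the smallest p in each direction, up to 10 called genes, the estimates nearest 0 and the highest and lowest counts. Rpl6, Rpl9, Rpl17 and Rpl28 were chosen after their values were seen. A few genes of this rule are not reported individually here, but remain in the counts and medians. DESeq2 1.42.0, limma 3.58.1 (voom with sample weights), other scalings, filters and covariates, a replicate block and leaving out libraries were alternatives. Totals of 1699712 to 3695785 counts limit precision for low genes.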

Additional observations from a re-analysis of the deposited data

Results flagged for a closer look

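Within each group of 6 libraries, the gap between the extreme library and its nearest neighbour was divided by the group's range, and values above 0.625 are listed. Chance alone gives such a gap in about 1 group in 20. The share of counts in ribosomal protein genes had a ratio of 0.768 in lean mice, where replicate 6 stood at 7.73% and the others at 4.09% to 4.94%. Among tested ribosomal protein genes 68 of 79 exceeded the limit in lean mice, all with replicate 6 highest, against 3 in vehicle and 4 in TN-783 mice.

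Of the genes named in the text, 37 exceeded it in lean mice. In the large subunit the ratio was 0.812 for Rpl10, 0.857 for Rpl10a, 0.818 for Rpl11, 0.649 for Rpl13, 0.758 for Rpl13a, 0.884 for Rpl17, 0.844 for Rpl22 and 0.783 for Rpl27. It was 0.738 for Rpl28, 0.725 for Rpl6 and 0.787 for Rpl9. It was 0.671 for Rpl3, 0.770 for Rpl30, 0.913 for Rpl35, 0.792 for Rpl38, 0.834 for Rpl39, 0.778 for Rpl4, 0.787 for Rpl41 and 0.828 for Rpl5. The stalk genes had 0.747 for Rplp0, 0.714 for Rplp1 and 0.794 for Rplp2. In the small subunit it was 0.739 for Rps14, 0.832 for Rps18, 0.829 for Rps19, 0.751 for Rps2, 0.807 for Rps21, 0.806 for Rps24 and 0.825 for Rps27. It was 0.784 for Rps27a, 0.690 for Rps27l, 0.649 for Rps29, 0.862 for Rps3, 0.676 for Rps4x, 0.717 for Rps6, 0.904 for Rps7 and 0.766 for Rpsa.

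In vehicle mice, replicate 3 was highest for Rpl8 (0.859, at 390 CPM) and Rplp1 (0.631, at 2067 CPM). In TN-783 mice, replicate 1 was highest for Rplp2 (0.669, at 1443 CPM) and Rpl28 (0.651, at 220.3 CPM). These are the libraries with the highest ribosomal protein share of their groups. Between groups, the slopes on integrity did not differ past the threshold for any of the 79 genes (edgeR).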

How the results depend on the processing

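Calls rested on Lean Control replicate 6 and on how integrity was modelled. Leaving out each library in turn, the number of ribosomal protein genes called was 0 to 38 for vehicle versus lean and 0 to 73 for the slope, with 38 and 0 reached without Lean Control replicate 6 and 73 without Lean Control replicate 4. Beside the 38, 2.89% of all genes were called in either direction, and beside the 73, 17.3%. The median slope was 0.89 to 1.54 and the median vehicle difference 0.21 to 0.49. For vehicle versus lean, limma voom with sample weights called 6 and no filter on low counts 1, Rps18, against 0. For the slope, the log2 total count as a covariate left 44 calls and the 12 DIO libraries alone 12. Leaving out the 2 libraries with the highest integrity scores left 0, with a median of 0.92. Of all genes, 3.99%, 5.49% and 0% were called in these fits, in either direction. The replicate number as a block left 0 slope calls, with a median of 1.42 and 71 genes at an unadjusted p under 0.05, and left the adjusted calls of the set at 0 in the 3 group comparisons. It moved the number at an unadjusted p under 0.05 from 11 to 16 for vehicle versus lean and from 1 to 6 for TN-783 versus lean. With the block, 0.0169% of all genes passed for the slope, and shares of all genes at the unadjusted threshold were not counted. Same-numbered libraries did not deviate together, since 3 of 18 pairs had a correlation above 0.1 (range -0.4 to 0.385). Summing features of 1 symbol changes nothing by construction. A looser filter, at least 1 CPM in 6 libraries, let 16009 genes be tested. In the 3 group comparisons 0 were called with that filter, DESeq2, the other scalings or added pseudogene counts (0.227% of all counts). Leaving out DIO+ Vehicle replicates 2 and 4 also called 0. These fits called 65 to 69 ribosomal protein genes for the slope. For the slope these fits called 6.56% to 11.9% of all genes, in either direction. TN-783 versus vehicle kept 0 calls in every fit run, with medians of -0.14 to 0.06. Of the values of named genes, 116 of 825 changed sign there, 5 of 700 for vehicle versus lean, 12 of 750 for TN-783 versus lean and 2 of 816 for the slope, with no called gene reversed. Depth limits the 4 paralogs with at most 25 counts.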
